A study of Caenorhabditis elegans with 2 samples.

Results

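The 269 regions described here were the places on the Caenorhabditis elegans X chromosome that were bound by tagged SWSN-7 in L1 larvae, away from annotated promoters. They came from the authors' list of regions that passed the irreproducible discovery rate (IDR) threshold, a filter on the reproducibility of ranks. Single regions in that list could still rank apart: X:16931247-16932001 was at 10223 in replicate 1 and 2024 in replicate 2. That list held 4087 entries in genome build ce11, and overlapping entries were merged into 3976 regions, of which 725 lay on X. A promoter window was taken around each 5′ end of a protein-coding transcript, reaching 1000 bp up and 500 bp down from it. The summit of 382 X regions fell in such a window, and that of 343 fell outside all of them. Of these, 74 overlapped a tRNA gene and were left aside. The 269 that remained made up 37.1% of the X regions and 6.77% of all regions. Of X regions, 47.3% had their summit outside promoter windows before tRNA genes were considered, against 34.9% of autosomal regions. Once tRNA-overlapping regions were left aside, 269 of 725 X regions and 1058 of 3251 autosomal regions remained, a smaller gap. Bases outside promoter windows were 73.2% of X and 67.1% of the autosomes.

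The data were chromatin immunoprecipitation and sequencing (ChIP-seq) of whole hermaphrodites, with 1 group of 2 biological replicates. Animals were of strain OP512, with the genotype unc-119(tm4063) III; wgIs512, in which the inserted transgene encodes SWSN-7 joined at its C terminus to GFP and FLAG. They were L1 larvae taken 6 hours after synchronization by starvation following bleaching, and an anti-GFP antibody was used for the precipitation. Both replicates came from this 1 transgenic line and from all tissues together, so a region bound in every cell and one bound strongly in a few cells cannot be told apart. Which promoter drives the transgene was not stated in the labels. With 1 group, no comparison between conditions could be made, and the regions are set beside X promoter regions (361), autosomal regions away from promoters (1058), all IDR regions, and the regions found from each replicate alone.

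SWSN-7, a protein with an ARID domain, belongs to PBAF, a form of the SWI/SNF complexes, which use ATP to move or evict nucleosomes at promoters and enhancers. In hermaphrodites the X chromosomes also carry the dosage compensation complex, a condensin-containing complex that lowers transcription of X genes. That complex is loaded at recruitment elements on X whose DNA carries a short motif named MEX (motif enriched on X), with the core GCGCAGGG, and spreads from there.

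The sequences of the 7 strongest regions are shown because most of them held that core or a form of it. Each is 200 bases around the summit from the ce11 reference. Capitals mark GCGCAGGG, the MEX core, and GCGAAGGG, a variant that was added to the search after these sequences had been seen, on either strand. The weakest region is shown for contrast.
Strongest region, between W04G3.11 and W02H3.3, chrX:11094103-11094302, plus strand: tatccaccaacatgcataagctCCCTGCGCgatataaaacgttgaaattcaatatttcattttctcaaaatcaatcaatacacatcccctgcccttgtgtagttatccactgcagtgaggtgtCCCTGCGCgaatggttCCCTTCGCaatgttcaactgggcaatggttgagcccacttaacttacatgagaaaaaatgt
Rank 2, between F20B6.9 and hpk-1, chrX:4209166-4209365, plus strand: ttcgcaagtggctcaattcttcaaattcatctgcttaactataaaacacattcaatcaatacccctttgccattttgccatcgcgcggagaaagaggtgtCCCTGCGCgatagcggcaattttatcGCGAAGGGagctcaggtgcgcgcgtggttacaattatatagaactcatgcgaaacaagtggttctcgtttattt
Rank 3, between ZK899.6 and gap-2, chrX:9465764-9465963, plus strand: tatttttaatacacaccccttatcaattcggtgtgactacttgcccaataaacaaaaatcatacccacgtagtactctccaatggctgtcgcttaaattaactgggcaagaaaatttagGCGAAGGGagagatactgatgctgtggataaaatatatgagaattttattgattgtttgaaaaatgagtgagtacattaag
Rank 4, between adm-2 and K02D3.1, chrX:13700770-13700969, plus strand: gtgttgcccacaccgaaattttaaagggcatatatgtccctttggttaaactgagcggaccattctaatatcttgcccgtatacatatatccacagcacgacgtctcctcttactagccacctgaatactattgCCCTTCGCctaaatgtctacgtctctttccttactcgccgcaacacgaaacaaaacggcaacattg
Rank 5, intron of mom-1, chrX:6296461-6296660, plus strand: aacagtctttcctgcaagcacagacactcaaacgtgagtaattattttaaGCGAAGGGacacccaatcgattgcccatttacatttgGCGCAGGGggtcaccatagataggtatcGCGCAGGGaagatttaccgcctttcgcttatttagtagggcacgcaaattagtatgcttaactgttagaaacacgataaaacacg
Rank 6, intron of Y41G9A.17, chrX:2997000-2997199, plus strand: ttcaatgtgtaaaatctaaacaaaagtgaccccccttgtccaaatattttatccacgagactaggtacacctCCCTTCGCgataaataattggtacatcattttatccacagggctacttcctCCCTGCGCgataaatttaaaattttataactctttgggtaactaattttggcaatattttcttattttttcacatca
Rank 7, near C30E1.4, chrX:16929691-16929890, plus strand: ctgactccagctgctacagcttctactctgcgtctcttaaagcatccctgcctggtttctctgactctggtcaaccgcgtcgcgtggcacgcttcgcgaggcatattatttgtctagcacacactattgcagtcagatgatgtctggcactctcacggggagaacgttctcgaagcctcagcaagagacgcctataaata
Weakest region, near cest-19, chrX:7040820-7041019, plus strand: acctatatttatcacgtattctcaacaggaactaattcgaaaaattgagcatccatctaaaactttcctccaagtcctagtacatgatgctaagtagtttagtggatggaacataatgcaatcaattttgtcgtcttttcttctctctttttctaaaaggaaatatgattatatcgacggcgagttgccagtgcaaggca
Both strands of the core appeared in these windows: CCCTGCGC is its reverse complement. The first sequence held the core at 2 places and the variant at 1, and the mom-1 sequence likewise. The sequences of rank 7 and of the weakest region held neither.

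The signal value, the peak caller's measure of enrichment, is the authors' and is comparable only within a list. Over the 269 regions it ran from 88.5 to 1714 with a median of 153.6 in the IDR list. The median was 184.96 over all IDR regions, 191.8 over X promoter regions and 154.7 over autosomal regions away from promoters. So the typical region of this kind was weaker than a promoter region on X, and close to its autosomal counterpart. Most regions were weak and a small group stood far above them. Divided by signal into 4 bins of equal size, the bin with the highest signal began at 284.7, and the others held the range below it.

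Each region had an overlapping candidate in both replicates, as did 3966 of all 3976 IDR regions, from lists of 30000 candidates per replicate. In replicate 1 the regions' signal ran from 17.04 to 697 with a median of 62.9, and in replicate 2 from 25.01 to 1013 with a median of 91.7. The log2 ratio of replicate 2 to replicate 1 had a median of 0.53 (SD 0.52 over regions), and 235 of the 269 (87.4%) were higher in replicate 2. Over all IDR regions the median ratio was 0.44, so the shift belonged to the lists as a whole. Among the 4087 strongest entries of each replicate, both lists overlapped 208 of the regions (77.3%), and neither overlapped 3. The same share over all IDR regions was 83.6%. All 25 of the strongest regions were in both lists, with log2 ratios between 0.07 and 0.88, while the spread of the ratio was wider among weak regions: the SD was 0.30 in the bin with the highest signal and 0.60 in the bin with the lowest.

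The 5 regions with the largest log2 ratio in either direction were all higher in replicate 2, the direction of the shift, and none was among the 25 strongest. The largest was at X:16931247-16932001, in the noncoding gene C30E1.9, with 17.04 in replicate 1 and 106.8 in replicate 2 (log2 ratio 2.65). The others were near F55A4.3 (23.3 and 92.4), near unc-10, which encodes the active-zone protein RIM (35.0 and 131.7), near aakg-3, an AMP-activated kinase gamma subunit gene (49.03 and 172.0), and in an intron of pcca-1 (21.8 and 63.9). Once the median ratio of all IDR regions was taken off, the region near mxl-3 at X:13349315-13349714 came second, lower in replicate 2 (60.3 and 25.01; log2 ratio -1.27, or -1.71 after the shift). One near Y15E3A.5 (66.1 and 33.2; -1.43 after the shift) was also among the first 5, and the regions at C30E1.9, F55A4.3 and unc-10 stayed there, so large differences went both ways.

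The MEX core was found mainly in the strongest regions. It lay within the 200 bp window at the summit of 12 of the 269 regions (4.46%). The share was 1.94% at X promoter summits, 0.0945% (1 of 1058) at autosomal summits away from promoters, 0.186% (1 of 538) in the regions' own flanking windows centred 1000 bp away, and 0.0818% of all 200 bp tiles of X outside promoter windows. From replicate 1 alone the count was 12 of 264 regions, and from replicate 2 alone 13 of 275. Since the regions are few, these counts describe these libraries.

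Matches were concentrated at high signal. In the 4 bins of signal, from the highest to the lowest, the core was at the summit of 9, 3, 0 and 0 regions. It was at 7 of the 25 strongest summits (28%) at 2 of the 25 strongest X promoter summits (8%) and at none of the 25 strongest autosomal summits away from promoters, although the autosomal list reached a higher signal, 2808. Over whole regions instead of windows, the core was in 8, 2 and 1 of these sets of 25. Of all 269, 14 held the core anywhere in the region, with signal from 136.2 to 1714 and a median of 982, against a median of 144 for the 255 without it. In replicate 1 the medians of these sets were 432 and 62.1, and in replicate 2 they were 543 and 87.7. The sets overlap: regions without the core reached 1551, and the weakest region with it lay below the median of all 269.

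The variant GCGAAGGG followed the same pattern, and it was picked after it was seen in the strongest sequences, so its count there is a description only. It lay in 11 of the 269 regions, 7 of them among the 25 strongest. Of the 10 strongest regions, 8 held the core or the variant and 4 held both. Each of the 6 strongest had at least 1 of them. Among regions ranked 26 to 67 the number with either was 4 of 42, among all 269 it was 20 (7.43%), among X promoter regions 10 of 361 (2.77%), and among autosomal regions away from promoters 8 of 1058 (0.756%).

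**Figure D1:**
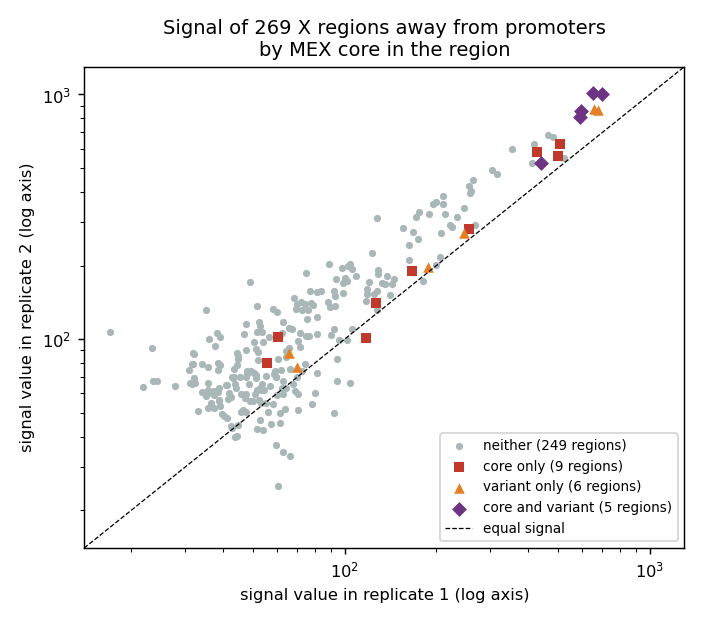
Signal value of each of the 269 regions in replicate 1 (horizontal) and replicate 2 (vertical), both on log axes; each point is 1 region, with shape and colour for the MEX core and its variant anywhere in the region. The 5 regions with both lie at the upper right with 4 of them above all regions that hold neither, and the 249 regions with neither fill the lower range and reach up to a signal near that of the core-only regions.

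Seen from the motif, X held 81 core sites (4.57 per Mb) and the autosomes 233 (2.82 per Mb). On X, 28 sites (34.6%) lay in an IDR region, 18 of them in the 14 regions described here and 10 in other X regions. On autosomes 8 sites (3.43%) lay in an IDR region. Thus most core sites on X, 53 of 81, lay in no IDR region, and 37 of those lay in no candidate entry of the pooled replicates either. Of the 18 sites in the 269 regions, 11 lay within 50 bp of the summit. The median distance was 28.5 bp and the range from 4 to 202 bp. Only sites inside a region were measured, so the width of the region limits this distance.

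The bases beside the core differed between sites inside and outside the bound regions. The following are some of the 18 sites in the regions described here, read along the strand of the core, with the core in capitals.
Rank 2, between F20B6.9 and hpk-1, chrX:4209258-4209281, minus strand: ccgctatcGCGCAGGGacacctct
Rank 6, intron of Y41G9A.17, second site, chrX:2997290-2997313, minus strand: atcgtatcGCGCAGGGaggaagta
Rank 9, near F22H10.2, chrX:16682164-16682187, minus strand: aaaacatcGCGCAGGGaacatcaa
Rank 13, near gtr-1, chrX:806666-806689, plus strand: cgattatcGCGCAGGGgtgtttgt
Rank 14, coding exon of pks-1, chrX:5429582-5429605, plus strand: taaatttaGCGCAGGGaggacgcc
Rank 31, near col-185, chrX:13514550-13514573, plus strand: cctttatcGCGCAGGGatattgaa
Rank 124, chrX:1837884-1837907, plus strand: actcggccGCGCAGGGcacggaaa
The core was directly preceded by TC at 9 of the 18 sites in these regions (50%) and at 5 of the 10 in other X IDR regions. The same held for 5 of the 53 X sites outside IDR regions (9.43%) and 6 of the 233 autosomal sites (2.58%). The base directly after the core was A at 13 of the 18 sites (72.2%), 6 of the 10 (60%), 15 of the 53 (28.3%) and 79 of the 233 (33.9%). These bases were picked as the commonest in the 18 sites, so their share there is a description only. TC before and AG after the core stood together at 3 of the 18 sites, at none of the 10, the 53 or the 233. Both sites of the rank 6 region were among the 3, so sites within a region were counted separately.

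Other motifs also differed in share between summits and flanks. The GAGA repeat, GAGAGA or its complement, was at 113 summits (42.01%) and in 13.0% of flanks. It was more frequent at autosomal summits away from promoters (61.2%) and at X promoter summits (48.8%) than in the regions described here. Over X tiles outside promoter windows the share was 8.92%. The palindromic E-box CACGTG, bound by helix-loop-helix factors of the MAX and MAD type, was at 40 summits (14.9%) and in 4.46% of flanks, and at 9.74% of the autosomal and 6.65% of the X promoter summits. In replicate 1 alone the E-box share was 13.3% and in replicate 2 alone 13.8%. In the 4 bins of signal, from the highest to the lowest, this E-box was at 12, 6, 7 and 15 summits. The CA repeat, CACACACA, was at 11.2% of summits and in 2.60% of flanks.

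Some motifs rich in A and T went the other way. The GATA form TGATAA was at 11.2% of summits and in 20.6% of flanks. TTTCAG, searched as a trans-splice acceptor form, was at 13.0% and 29.9%, and the homeodomain core TAATTA at 6.32% and 10.2%. The CCAAT box, searched as ATTGG, was at 30.5% of summits and in 31.4% of flanks, close to each other. The AP-1 form TGANTCA was at 5.95% and in 7.43%. The forkhead form GTAAACA was at 5.20% and in 3.72%, and the E-box CAGCTG at 5.20% and in 4.28%. The ETS form CCGGAAG, at 1.49% and in 1.12%, and the POU form ATGCAAAT, at 0.372% and in 1.86%, were rare in both. Motifs were searched on both strands, a match is a description of the letters, and matches of different motifs can overlap.

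**Figure D2:**
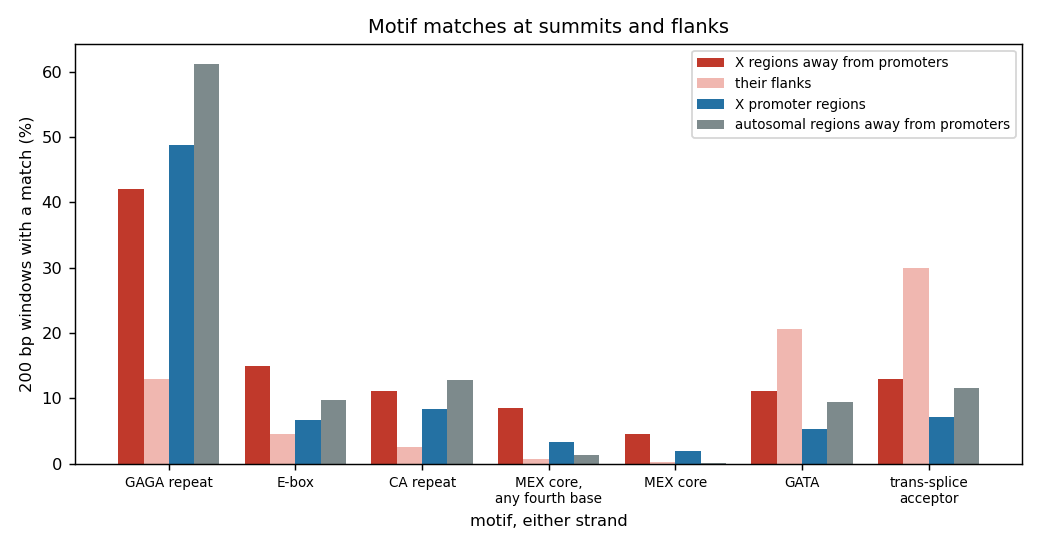
Share of 200 bp windows with a match to each motif at the summits of the 269 X regions, in their flanks 1000 bp away, at 361 X promoter summits and at 1058 autosomal summits away from promoters. The MEX bars are small but tallest in the X regions, the GAGA repeat is tallest in the autosomal regions, and GATA and the trans-splice acceptor are tallest in the flanks.

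Summits were rich in G and C. The median GC content of the 200 bp around the summit was 45.5%, against 34% in flanking windows 1000 bp away and 35.2% for the X chromosome as a whole. The difference between a summit and its own flanks had a median of 10.75 percentage points (mean 10.6, SD 9.17 over regions), and 239 of the 269 summits (88.8%) were richer than their flanks. Autosomal regions away from promoters had a median of 46% at the summit and the same median difference of 10.75 points, and X promoter regions had 47.5% and 11.5 points. An elevation of similar size was thus seen in X promoter regions and in autosomal regions away from promoters. Over all IDR regions it was smaller, with medians of 44% at the summit and 7.75 points. From the bin with the highest signal to the lowest, median GC at the summit was 47.5%, 47.5%, 45% and 42.8%. In these bins 1, 15, 55 and 66 regions were exactly 400 bp wide, and nearly all such regions had the summit at the exact middle. GC content and the form of the summit thus both changed with signal, and the part of either was not tested. The 14 regions with the MEX core had a median of 43.3%, below the 46% of those without it.

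**Figure D3:**
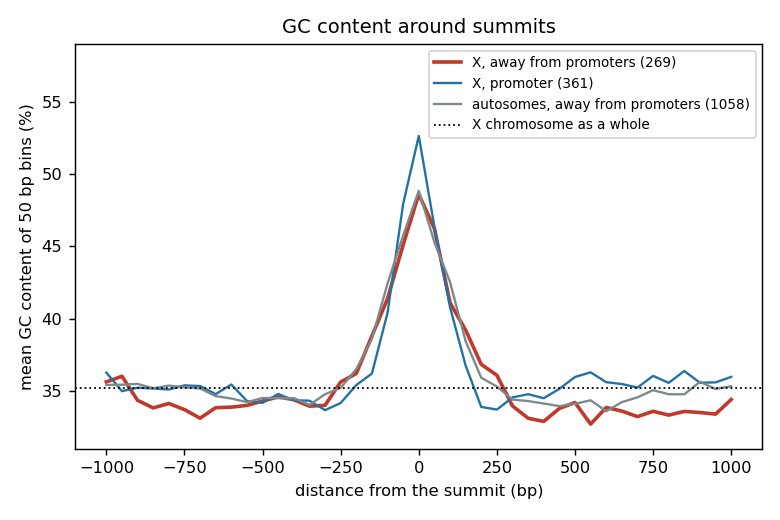
Mean GC content of 50 bp bins against distance from the summit, for the 269 X regions, X promoter regions and autosomal regions away from promoters; the dotted line is X as a whole (35.2%). In the X regions the mean is 48.6% at the summit, 34.01% at 300 bp before it and 33.96% at 300 bp after it, and the autosomal curve follows it closely.

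Most of the regions lay between genes. At the summit, 167 (62.1%) were outside any annotated gene, 66 (24.5%) in an intron of a protein-coding gene, 30 (11.2%) in a noncoding gene, 5 in a coding exon and 1 in an untranslated region. Of X bases outside promoter windows, 39.9% were between genes, 31.5% intronic, 20.3% coding and 4.09% in noncoding genes. Summits were therefore more often between genes and in noncoding genes, and less often in coding exons, than the bases available. Replicate 1 alone gave 64.4% between genes and replicate 2 alone 60.4%. Autosomal regions away from promoters had fewer between genes (56.4%) and more in introns (33.2%), on chromosomes where intergenic bases were also a smaller share (29.6%). The density of regions per Mb outside promoter windows was 20.7 on X and 19.1 on the autosomes.

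**Figure D4:**
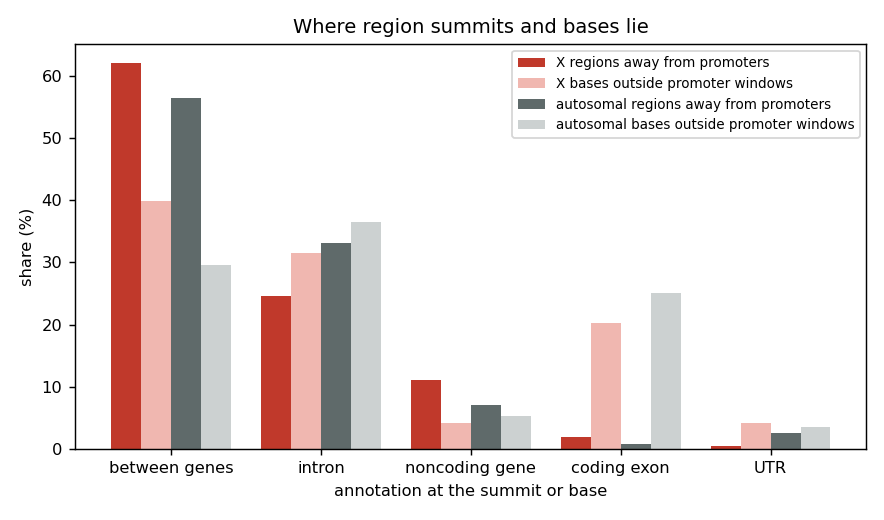
Share of region summits in each annotation class, beside the share of all bases outside promoter windows, for X and for autosomes. The 269 X regions stand at 62.1% between genes against 39.9% of X bases, and at 1.86% in coding exons against 20.3%.

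The nearest protein-coding 5′ end was a median of 2321 bp from the summit, with a range from 580 to 15193 bp. For 167 regions (62.1%) the summit was upstream of it. The distance was at most 2000 bp for 116 regions (43.1%) and over 5000 bp for 42 (15.6%), against 48.96% and 10.5% of autosomal regions away from promoters. The rule's edge cut through a continuous range: 12 regions had a summit within 100 bp beyond the upstream edge, the closest at 1002 bp, and 13 X promoter regions lay within 100 bp inside it, the farthest at 996 bp. Many C. elegans transcripts are trans-spliced, so an annotated 5′ end can lie downstream of the true start, and some of the 68 regions within 1000 bp beyond the upstream edge may be closer to a start than annotated. Noncoding genes, mostly of the short ncRNA biotype, overlapped 38 regions (34 of that biotype), and 6 regions lay within 1000 bp of a microRNA gene. One of these, with signal 941, was in an intron of F09A5.3, with its summit 322 bp from mir-54, and a weaker one in the same gene lay 301 bp from mir-56.

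Spacing along X was uneven. The 268 gaps between neighbouring summits had a median of 33642 bp and a mean of 64586 bp, and ran from 485 to 462702 bp. Of the gaps, 62 (23.1%) were under 5000 bp, against 12.5% of the gaps between X promoter regions and 21.1% of those between autosomal regions away from promoters. From replicate 1 alone the share was 24.7% and from replicate 2 alone 21.9%. Joining summits less than 5000 bp apart gave 167 single regions, 29 pairs and 11 longer runs. Whole megabases of X held from 6 to 23 regions with a median of 14, and 3 stretches of equal length from the left end to the right held 84, 77 and 108. Of the 25 strongest, these stretches held 6, 7 and 12.

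**Figure D5:**
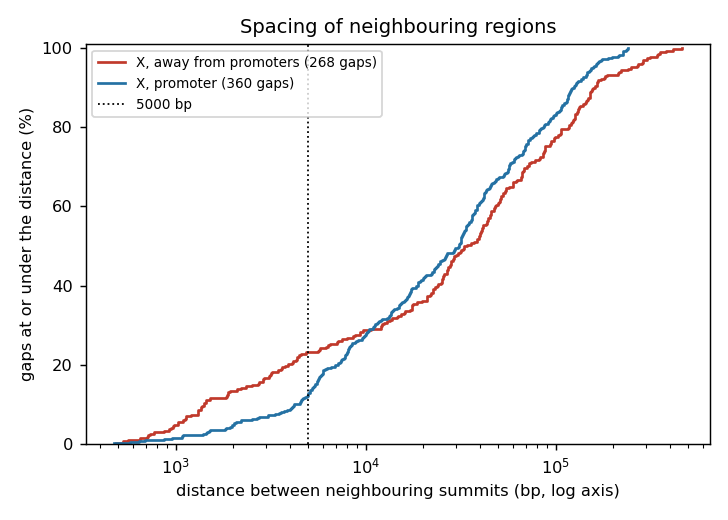
Cumulative share of gaps between neighbouring summits (vertical, %) against gap length (horizontal, log axis) for the 269 X regions and the 361 X promoter regions; the dotted line is 5000 bp. The curve of the X regions away from promoters stands higher at short gaps, 23.1% against 12.5% at 5000 bp, and extends to longer ones.

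The longest run held 9 summits over 13469 bp, at X:6736741-6750540, around mdl-1, which encodes a MAD-like helix-loop-helix factor, R03E9.2, and abts-4, an anion transporter gene. Signal in it ran from 96.7 to 584. The next held 6 summits at W05H9.4 and got-2.2, an aspartate aminotransferase gene (91.5 to 273). Runs of 4 lay in lin-14, which encodes the nuclear heterochronic regulator of first-stage fates (90.6 to 306), and at mxl-3, a MAX-like helix-loop-helix gene (96.0 to 292). Runs of 3 lay at nhr-40, ZK470.2, F57G12.1, bcat-1, nhr-3, kin-20 with jud-4, and C30E1.4. Signal was not even within a run: at C30E1.4 it ran from 89.7 to 1168.

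The closest pairs of summits were 485 bp apart near W05H9.4 (signal 121.5 and 197.9), 526 bp apart at ZK470.2 (424 and 112.01), 559 bp apart near cutl-21 (91.3 and 143.4), 648 bp apart near C30E1.4 (89.7 and 124.4) and 705 bp apart near got-2.2 (178.7 and 91.5). The longest stretches without a region were 462702 bp from lin-14 to F55G7.5, 414571 bp from spc-1, a spectrin gene, to rgs-7, and 379532 bp from C04E7.3 to sli-1, a CBL homologue.

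Of the 2731 protein-coding genes on X, 55 (2.01%) had a summit inside them, which took 72 of the regions. These hosts were long, with a median of 9099 bp against 2548 bp for all, and 24 of the 151 genes over 10000 bp held one. The genes with the most were lin-14, with 4 summits of signal 301.5, 119.3, 306.5 and 90.6 along 20312 bp, and scd-1, with 4 along 21903 bp (313.0, 119.9, 139.0 and 133.3). ZK470.2 held 3 (148.5, 424.1 and 112.01), and so did nhr-40 (91.1 to 154.7). The spaces between protein-coding genes that held a region were also long, with a median of 6920 bp in 158 intervals. The median was 2907 bp in the 1677 intervals that had any base outside promoter windows and could hold a region, and 1793 bp in all 2376. By the direction of the genes on either side, 50.8% of the summits in such spaces lay between genes in tandem, 34.01% between divergent and 15.2% between convergent genes. The bases outside promoter windows in these spaces divided as 53.6%, 33.7% and 12.7%. Per Mb of these bases there were 32.96 summits in tandem, 35.05 in divergent and 41.7 in convergent spaces. Whether the direction of the genes bears on these densities was not tested.

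The 5′ end nearest to a region belonged to 211 X genes (7.73%). Nearest is a distance only, and does not say which gene a region acts on. Genes with more sequence around them are nearest more often, so each gene list is given with its share of the X bases outside promoter windows.

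Nuclear hormone receptors, ligand-regulated transcription factors, were frequent: 12 of the 27 on X were nearest to a region (44.4%), and 4 held one inside (14.8%; 5 and 7 from replicates 1 and 2 alone). They were nearest to 17 regions, 6.32% of the 269, and to 1.61% of the bases. The count of nearest genes was 12 from either replicate alone. The strongest of these regions was 8110 bp upstream of nhr-1, with signal 682 (255.8 in replicate 1 and 424 in replicate 2). The next were 2713 bp upstream of nhr-17 (556; 194.7 and 357), in an intron of nhr-3 (449.8; 127.5 and 311) and 1054 bp beyond the 3′ end of nhr-3 (403.7; 199.9 and 201). Of genes with weaker regions, daf-12, the dafachronic acid receptor that controls dauer entry and larval timing, held one in an intron (349; 123.2 and 224.5). Likewise nhr-25, the FTZ-F1 homologue used in molting, held one (124.7; 49.5 and 73.96). These 2 genes were named for their known roles after their values were seen.

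Of 9 helix-loop-helix genes, 3 were nearest to 12 regions (4.46% of the regions, 0.361% of the bases), and 7 of these regions were nearest to mdl-1. The strongest were 2 regions of mdl-1, with signal 574 (267.5 and 293.7 in the replicates) and 553 (232.8 and 314.9), the second in an intron of abts-4. Next came a region of hlh-29, a REF-1 family gene, with 525 (245.6 and 272.6), and another of mdl-1 with 395 (163.0 and 242.7). The strongest region of mxl-3, picked out after its values were seen, had 157 (94.1 and 67.7) and was higher in replicate 1, unlike most.

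Genes of synaptic and neuronal function had 6 of 18 nearest to a region (33.3%; 2.60% of the regions, 1.14% of the bases). The strongest were upstream of dgk-1, a diacylglycerol kinase gene (328; 137.9 and 181.4), unc-1, a stomatin-like gene (229; 76.9 and 158.0), unc-10 (175; 35.0 and 131.7) and dyn-1, the dynamin gene (168; 67.3 and 109.7). From replicate 1 alone 4 of the 18 were nearest, and from replicate 2 alone 6. Muscle genes had 3 of 14 (1.12% of the regions, 0.613% of the bases): the PINCH-type adhesion gene unc-97 (173.4), the troponin I gene tni-1 (119.4) and pat-9, a zinc finger gene (91.7).

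The counts of the next lists were 3 or fewer. Potassium channel genes had 3 of 20, with 1.24% of the bases (irk-3 with 124.0, twk-20 with 118.2 and kcnl-3 with 101.5), axon guidance and adhesion genes 2 of 27, with 1.37% (mig-15, a NIK-family kinase gene, with 293.8, and sdn-1, the syndecan gene, with 155.8), and innexins 1 of 6, with 0.441% (unc-9 with 115.8). Chemoreceptors had 1 of 33, with 0.638% of the bases (srg-64 with 162.2) and collagens 1 of 32, with 0.671% (col-185 with 529, whose region held the MEX core). Of 9 genes of the Wnt, Notch, EGF and TGF-beta pathways (0.457% of the bases), sma-9, a Schnurri-type cofactor of TGF-beta signalling, was nearest to 2 regions, and mom-1, the Porcupine homologue used in Wnt secretion, held the region of rank 5. Of 6 genes that set dosage compensation or count X chromosomes (0.288%), fox-1, an RNA-binding X signal gene, was nearest to 1 (121.9).

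The other 5 lists, 151 genes in all, had no gene nearest to a region and none with a region inside. They were homeobox regulators (27 genes, 1.24% of the bases), ligand-gated channels (29, 1.03%), calcium, sodium and chloride channels (10, 0.9498%), neuromodulator and peptide receptors (48, 3.93%) and neuropeptides (37, 1.47%). The median of bases per gene was 10662 bp in the receptor list, 8101 bp in the calcium, sodium and chloride channels, 4785 bp in the neuropeptides, 4675 bp in the homeobox list and 3499 bp in the ligand-gated channels. Over all X genes it was 3688 bp, and over the genes nearest to a region 7037 bp. The surroundings of 3 of these lists were thus shorter than those of the genes nearest to a region. Those of the receptor list and of the calcium, sodium and chloride channels were longer. Whether the length bears on the counts was not tested. Both counts were also 0 from each replicate alone.

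The 6 strongest regions stood apart: the weakest of them had signal 1405, and the next region had 1168. The strongest lay at X:11093840-11094489 between the convergent W04G3.11 and W02H3.3, with signal 1714 (697 in replicate 1 and 1007 in replicate 2). That of rank 2, at X:4208945-4209616, was 1781 bp upstream of F20B6.9 and 1305 bp from hpk-1, a homeodomain-interacting kinase gene (1663; 653.6 and 1013). Rank 3, at X:9465533-9466183, lay between ZK899.6 and gap-2, a Ras GTPase-activating protein gene (1551; 679 and 863), and rank 4, at X:13700539-13701160, between adm-2, an ADAM protease gene, and K02D3.1 (1542; 655 and 872). Rank 5, at X:6296261-6296910, was in the intron of mom-1 (1461; 597.6 and 853), and rank 6, at X:2996727-2997438, in an intron of Y41G9A.17 (1405; 590.5 and 809). All 6 were higher in replicate 2, by a similar ratio. None of the 6 had a 5′ end within 1000 bp, which the promoter rule largely fixed in advance. That rule had removed every summit up to 1000 bp upstream of a 5′ end. Of all the regions described here, only 14 had their nearest 5′ end within 1000 bp.

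Ranks 7 to 14 had signal from 962 to 1168. Rank 7 was near C30E1.4 and rank 8 near F55G7.5. Rank 9 was near F22H10.2 and rank 10 in the short space between F19H6.6 and F19H6.5. Rank 11 lay between W01H2.2 and the small GTPase gene rab-37, rank 12 lay 2941 bp upstream of sma-9, and rank 13 lay between gtr-1 and F25E2.2. Rank 14 was in a coding exon of the polyketide synthase gene pks-1, 15193 bp from the nearest 5′ end, that of C41A3.2. The MEX core was in ranks 9, 10, 13 and 14.

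Ranks 15 to 25 had signal from 584 to 941, and none held the core or the variant. They were in introns of F09A5.3, of ldb-1, a LIM-domain-binding cofactor gene (810), and of aak-2, the AMP-activated kinase catalytic subunit gene (597). Others were near T27A8.7, the trehalose-6-phosphate synthase gene tps-1 (812), tmem-184, nhr-1, pigx-1 and hda-4, a class II histone deacetylase gene (647). The remaining 2 were near dct-1, a BNIP3-type mitophagy gene (588), and at R03E9.2 with mdl-1 (584). Of all 25, 18 were between genes, 5 in introns, and 12 upstream of the nearest 5′ end, at a median of 2941 bp.

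The 5 weakest regions had signal from 88.5 to 89.2. They were near cest-19 (37.4 in replicate 1 and 52.1 in replicate 2), in an intron of the protein disulfide isomerase gene pdi-6 (42.9 and 43.3), in the noncoding gene F57G12.11 (24.3 and 67.3), near rgs-7 (44.3 and 40.3) and in an intron of pcca-1 (21.8 and 63.9). Their shape differed as well: 66 of the 68 regions in the bin with the lowest signal were exactly 400 bp wide, against 1 of 67 in the highest. Over all 269, 137 were 400 bp wide and 136 of these had the summit at the exact middle, so the deposited width and summit of most weak regions had a fixed form, whose origin the labels do not state.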

How the data were processed

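The series held ChIP-seq data from 1 group of 2 biological replicates. Per the labels, reads were mapped to builds ce10 and ce11. The authors deposited a list of 30000 candidates for each replicate and an IDR list, with the caller's signal value, a −log10 q-value and a summit for each entry. The deposited −log10 q-values were at their ceiling in all 4087 IDR entries in ce11, so regions were ranked by signal value. No source used here gives the aligner, the caller or their versions, read depth is unknown, and the control experiment named in the labels was not used here.

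Entries overlapping by 1 bp or more were merged with the summit of the strongest. Genes are from Ensembl release 115 on WBcel235, the same assembly as ce11 by chromosome lengths. Coordinates are 1-based. A summit was classed in the order coding exon, untranslated region, intron, noncoding gene, between genes. A replicate's value is that of its strongest overlapping candidate. "Replicate alone" means its 4087 strongest entries put through the same steps. GC content and 16 motifs were taken over 200 bp at the summit; 3 of the motifs were added after sequences had been seen.

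Named regions are the 25 strongest, the 5 weakest, the extremes of spacing and of replicate difference, those in genes that held 3 or more, and up to 4 regions per gene list by signal. The regions of daf-12, nhr-25 and mxl-3, and the 2 added when the replicate shift was taken off, were named after their values were seen. Members, lists and motifs were chosen with earlier results of these data known. Measures were computed in Python 3.11.15 with pandas 2.3.3 and numpy 2.4.6 and tested on simulated regions. Alternatives were other promoter windows, merging rules, thresholds, windows and each replicate alone.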

Additional observations from a re-analysis of the deposited data

How the results depend on the processing

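No paired analysis was possible because there was 1 group. The 11 summary results were recomputed under alternative settings, giving 93 values in all. Of these, 60 stayed within the spread between the replicates alone, or within 1.5 times for counts, and 33 moved. The settings that left out a replicate gave that spread and were also counted, so the division is a description only. Only the GC difference could have changed sign, and it did not. With promoter windows of 300 bp on each side there were 416 regions (57.4% of X regions, 67.1% of them between genes, median spacing 22175 bp), and with 2000 bp upstream the values were 26.9%, 58.5%, 38337 bp and a GC difference of 10.0 points. When any base of a region in a window removed it, the share was 34.5% and the spacing 36978 bp. In the strongest 1988 of all regions there were 108 regions (31.0%), 66.7% between genes, with a spacing of 89178 bp, a GC difference of 12.4 points, a median signal of 314, 23 host genes, 6 nearest nuclear hormone receptor genes and an X share of 17.5%. Keeping tRNA-overlapping regions gave 47.3%, 59.2% between genes, a spacing of 26943 bp and 11.5 points. Unmerged entries gave a spacing of 30395 bp, and the ce10 list an X share of 18.9%. The GC difference was 13.0 points in 100 bp windows, 7.38 in 400 bp windows and 12 with flanks at 500 bp.

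Leaving out one replicate gave shares of 37.0% to 37.5%, spacings of 33123 to 35706 bp, GC differences of 10.25 to 10.75 points and median signals of 64.2 to 89.9, the last on the replicates' own scale. The count of regions with the MEX core at the summit was 11 to 15 under every setting tried. Limits: there were no read counts, no control values and 1 transgenic line; weak regions have a fixed width; nearest genes are a matter of distance; and the cause of each shift between settings was not tested.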

Other observations

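A further motif, GAGACGCA, was picked after it was seen in summit sequences, so its counts are a description. It was at 30 of the 269 summits (11.2%), in 0.743% of their flanks and in 0.481% of X tiles outside promoter windows. It was at 46 of 361 X promoter summits (12.7%) and at 228 of 1058 autosomal summits away from promoters (21.6%). In 4 bins of signal in the X regions, from the highest to the lowest, it was at 13, 9, 7 and 1 summits. From replicate 1 alone the share was 11.4% and from replicate 2 alone 10.2%.

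The variant GCGAAGGG occurred at 140 sites on X (7.90 per Mb) and 490 on autosomes (5.94 per Mb). On X 15 sites (10.7%) lay in an IDR region, 11 of them in the regions described here, and on autosomes 15 (3.06%). With any base at the fourth position of the core, 23 of the 269 summits had a match (8.55%), against 0.743% of flanks, 3.32% of X promoter summits and 1.32% of autosomal summits away from promoters; in the 4 bins of signal the counts were 15, 5, 2 and 1.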
